A study of Mus musculus with 9 samples.

Results

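Mmp9, the membrane sheddases Adam8, Adam10, Adam17 and Adam19 and the inhibitors Timp1 and Timp2 form a set of 7 metalloproteinase-system genes. They were described across iNKT1 cells of 3 tissues. Their symbols were matched to the Ensembl identifiers of the authors' table, and 6 of the 7 had a row among 14004 genes. Timp1 (ENSMUSG00000001131) had no row and was not analysed here. The set was proposed with earlier results of these data in view and was chosen by the higher Mmp9 levels of liver and spleen than of thymus. For these 6 genes the contrasts with thymus are therefore described by their values, and the counts of calls given for them are no support. The other genes of the system, which the rule does not name, were tested in all 3 comparisons.

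The cells were invariant natural killer T cells of the T-bet-expressing type 1 subset (iNKT1), lymphocytes that recognise lipids on CD1d. There were 9 RNA-seq libraries, 3 for each of thymus, liver and spleen. All 3 groups came from untreated C57BL/6 mice of the genotype Tbx21CreTg;Rosa26-LSL-YFP+/+, in which a Cre driven by the T-bet gene switches on a yellow fluorescent reporter. Every library therefore carried the Cre transgene and the reporter, and the labels mention no mice without them. The labels call the 3 replicates of a tissue independent without naming animals, ages or sexes, so the spread below is that between libraries.

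Metalloproteinases are zinc-dependent proteases. MMP9 is secreted and degrades gelatins and basement membrane collagen, and ADAM proteases sit in the plasma membrane and release the outer parts of cytokines, receptors and adhesion molecules from the cell surface. TIMP proteins bind the active sites of many of these enzymes and block them. MMP9 in T and NK cells is known for its part in crossing basement membranes, and ADAM17 and ADAM10 for shedding L-selectin, TNF and Notch receptors. RNA levels say nothing of the enzymes' activation or of inhibitor protein.

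Promoter sequences were read from a RefSeq table for 6 of the 7 genes, in the build GRCm38.p6. Mmp9 had no entry in it. The 250 bases before the start are shown for 2 genes, since Adam8 was lowest in thymus and Adam10 had overlapping levels in all 3 tissues. Adam8 lies on the minus strand (chr7:139992563-139992812) and Adam10 on the plus strand (chr9:70678732-70678981). The RefSeq start of Timp2 lies inside the span GENCODE vM21 gives the gene, so its window overlaps annotated exons and is not shown. Each sequence runs 5′ to 3′ along its gene, and capitals mark GGGCGG, the GC box bound by Sp-family factors, on either strand.
Adam8: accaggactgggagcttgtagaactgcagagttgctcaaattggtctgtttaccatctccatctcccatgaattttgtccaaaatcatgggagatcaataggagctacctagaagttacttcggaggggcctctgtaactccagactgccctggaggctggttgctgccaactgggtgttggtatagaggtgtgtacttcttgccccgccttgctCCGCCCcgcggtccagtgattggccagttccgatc
Adam10: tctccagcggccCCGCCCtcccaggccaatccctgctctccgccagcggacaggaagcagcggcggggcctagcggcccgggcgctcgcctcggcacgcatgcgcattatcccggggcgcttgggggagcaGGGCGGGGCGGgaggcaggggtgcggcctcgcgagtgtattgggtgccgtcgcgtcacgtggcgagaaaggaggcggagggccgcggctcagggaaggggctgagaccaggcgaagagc
The Adam10 window was 74.0% G and C, with 3 GC boxes, of which the pair in the middle share a base. The Adam8 window was 52.8% G and C, against a median of 52.4% over 32851 promoters, and held 1 GC box. GGGCGG was present in 32.7% of all promoters of this length. The AP-1 element TGANTCA, present in 6.75% of all promoters on either strand, was found in neither window printed. It was found in 1 of the 8 windows of the 6 genes, that of the second of 3 Adam19 starts. These matches describe the letters and not binding.

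The libraries corresponded to 18507689 to 39574809 reads, except liver replicate 3 with 3874922. Reads were recovered from the step between low values, since the deposited numbers are not whole. Genes with a read numbered 10476, 11180 and 12222 in thymus replicates 1, 2 and 3. They ran from 11781 to 13038 in liver and from 12232 to 12888 in spleen. On log2(value + 1), thymus libraries correlated with each other at 0.70 to 0.75 and with liver libraries at 0.71 to 0.82. Liver libraries correlated with each other at 0.80 to 0.86 and spleen libraries at 0.79 to 0.84. Replicate 2 of every tissue had abundant Xist (84543 at the lowest) and no more than 21 Y-linked reads, and thymus replicate 3 combined Xist at 16531 with 7017 Y-linked reads. Markers of iNKT1 identity (11 of 11 with a row) summed to 113981 to 146361 in thymus, 139613 to 158046 in liver and 98517 to 116924 in spleen. Il2rb and Cd3e had the highest values of these markers, with means of 50200 and 35175 over the 9 libraries, so the sums mostly follow them. Single markers differed by tissue. Klrd1 averaged 16989, 3352 and 2792.5 in thymus, liver and spleen, and Il2rb 38614, 66906 and 45080. All 14 neutrophil markers listed, a cell type known for its stored MMP9, had no row and were not analysed here. Hepatocyte genes (7 of 11 with a row) summed to 1459 to 1800 in liver, at most 270 in thymus and at most 14.1 in spleen. In bulk RNA, fewer cells that express a gene and less RNA per cell cannot be told apart.

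Mmp9, the secreted gelatinase, was near 0 in thymus and among the well expressed genes of both peripheral tissues. The gene (ENSMUSG00000017737) lies at chr2:164940780-164955850 on the plus strand of mm10, with no overlapping gene in GENCODE vM21. Its normalised read counts were 0.0213, 0.0275 and 2.55 in thymus replicates 1, 2 and 3, values that correspond to 0, 0 and 2 reads. In liver they were 3430, 3033 and 3585, and in spleen 592, 1633 and 2051. All 6 peripheral values lay far above all 3 thymus values, and the lowest liver value lay above the highest spleen value. Thymus averaged 0.867 ± 1.46, liver 3349 ± 284 and spleen 1425 ± 751 (SD, n = 3 each). Against a level of 3 reads in thymus, Mmp9 was at least 949-fold higher in liver and at least 404-fold higher in spleen, bounds that cover counting error only. The fitted log2 fold changes of value + 1 were 11.07 and 9.66 (SE 1.07), but they depend on the added 1.

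Within the periphery the liver mean of Mmp9 was 2.35-fold the spleen mean, and the 3 liver values spread less than the 3 spleen values. In limma the log2 fold change from spleen to liver was 1.41 (SE 1.07, 95% interval −0.88 to 3.70, adjusted p = 0.9999), so this difference did not pass the test. Spleen replicate 1 held the lowest peripheral Mmp9 value, 592. The same library had the highest sum of macrophage and Kupffer cell markers, 4361 with reads in 7 of 7 genes, against 32.9 and 72.9 in spleen replicates 2 and 3. In liver that sum ran from 66.2 to 1190 and in thymus from 0.187 to 279. Liver replicate 1, with Mmp9 at 3430, had reads in 3 of the 7 genes. Its sum of 1190 was nearly all Cd68, at 1171 there and 1188 in spleen replicate 1. Adgre1, Csf1r and C1qc were at 0 there and at 405, 1297 and 883 in spleen replicate 1. Liver replicate 3, with the highest Mmp9 value, 3585, had reads in 4 of the 7 genes. These were Lyz2 at 404, C1qb at 107, Cd68 at 85.9 and Csf1r at 37.5. Liver replicate 2, with Mmp9 at 3033, had reads in 5 of the 7, with a sum of 66.2. Without spleen replicate 1 the log2 fold change from spleen to liver was 0.87, and that from thymus to spleen was 10.21. The part of other cells in the Mmp9 level was not tested.

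**Figure D1:**
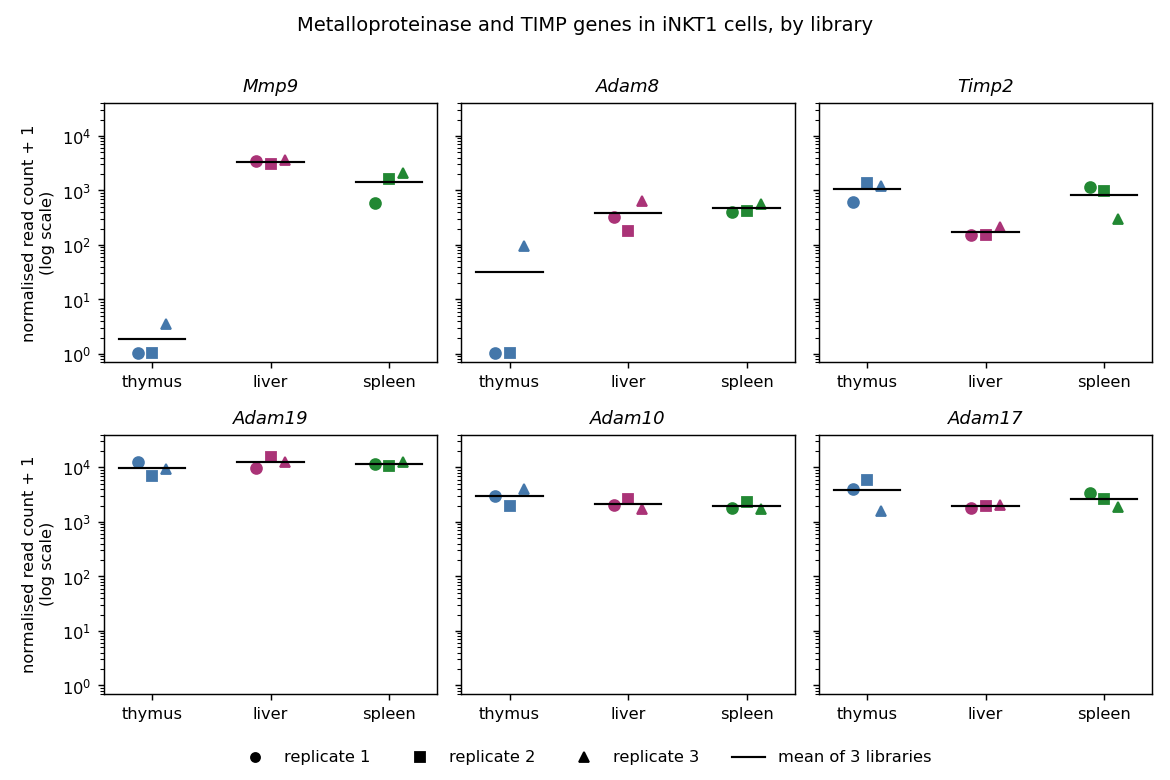
Normalised read count + 1 (log axis) of the 6 genes in each of the 9 libraries, by tissue, where each symbol is 1 library and the line is the mean of 3. Mmp9 and Adam8 lie near 1 in thymus replicates 1 and 2, Timp2 lies lowest in the 3 liver libraries, and Adam19, Adam10 and Adam17 overlap across tissues.

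Adam8, a sheddase of leukocytes that cleaves adhesion molecules such as L-selectin, was also lower in thymus than in the periphery. The gene (ENSMUSG00000025473) lies at chr7:139978932-139992562 on the minus strand and overlaps Gm16201 on the opposite strand. Its values were 0.0212, 0.0274 and 92.8 in thymus, 324, 181 and 640 in liver, and 408, 423 and 572 in spleen. Thymus replicates 1 and 2 had no Adam8 read and thymus replicate 3 had 74, still below every peripheral library. Replicates 1 and 2 of thymus also had the fewest genes with a read of all libraries, 10476 and 11180. Liver and spleen overlapped. The means were 31.0 ± 53.6 in thymus, 382 ± 235 in liver and 468 ± 90.8 in spleen (SD, n = 3 each), which put liver 12.3-fold and spleen 15.1-fold above thymus.

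The fitted log2 fold changes of Adam8 were 6.18 in liver and 6.65 in spleen over thymus (SE 1.73), with a residual SD of 2.24 on the log2 scale. Averaged on the log scale over uneven thymus libraries, they exceed the folds of the means. In edgeR they were 3.62 and 3.94. The thymus mean rests on replicate 3, and without that library the limma log2 fold changes were 8.36 and 8.82. Thymus replicate 3 also held the highest sums in thymus of immature thymocyte markers, 783 of 4 genes with a row, and of dendritic cell markers, 893 of 3 genes. Liver replicate 1 had higher sums of both, 1157 and 1762. The part of such cells in the Adam8 level was not tested. Between liver and spleen the log2 fold change of Adam8 was −0.46 (SE 1.73, 95% interval −4.14 to 3.21, limma adjusted p = 0.9999), an interval that leaves differences of either sign.

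Adam10, the sheddase that makes the first cut of ligand-bound Notch receptors, was read at overlapping levels in the 3 tissues. The gene (ENSMUSG00000054693) lies at chr9:70678997-70780229 on the plus strand with no overlapping gene. Its values were 2967, 1928 and 3951 in thymus, 2075, 2632 and 1739 in liver, and 1818, 2309 and 1739 in spleen. The highest value was in thymus, but each tissue's range overlapped both others. The means were 2949 ± 1012 in thymus, 2149 ± 451 in liver and 1955 ± 309 in spleen (SD, n = 3 each). The fitted log2 fold changes against thymus were −0.42 in liver and −0.54 in spleen (SE 0.40). Between liver and spleen it was 0.13 (SE 0.40, 95% interval −0.72 to 0.97, limma adjusted p = 0.9999).

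Adam17, also called TACE, is the main sheddase of TNF and L-selectin. The gene (ENSMUSG00000052593) lies at chr12:21323509-21373632 on the minus strand and overlaps Iah1 on the opposite strand. Its values were 4044, 5981 and 1611 in thymus, 1783, 1971 and 2018 in liver, and 3465, 2670 and 1861 in spleen. Thymus held both the highest and the lowest of the 9 values, so its range covered every liver and spleen library, and the liver values lay closest together. The means were 3878 ± 2190 in thymus, 1924 ± 124 in liver and 2666 ± 802 in spleen (SD, n = 3 each). The fitted log2 fold changes against thymus were −0.82 in liver and −0.39 in spleen (SE 0.46). From spleen to liver it was −0.43 (SE 0.46, 95% interval −1.41 to 0.55, limma adjusted p = 0.9999).

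Adam19, the meltrin beta protease that cleaves neuregulins, had the highest level per kb of the set in all 3 tissues. The gene (ENSMUSG00000011256) lies at chr11:46055992-46147343 on the plus strand and overlaps the antisense genes Gm16033 and Gm16034. Its values were 12372, 7093 and 9241 in thymus, 9945, 15228 and 12439 in liver, and 11367, 10439 and 12738 in spleen. The lowest 2 values came from thymus and the highest from liver, and all 3 ranges overlapped. The means were 9569 ± 2655 in thymus, 12538 ± 2643 in liver and 11515 ± 1157 in spleen (SD, n = 3 each). The fitted log2 fold changes against thymus were 0.41 in liver and 0.30 in spleen (SE 0.26). From spleen to liver it was 0.11 (SE 0.26, 95% interval −0.44 to 0.65, limma adjusted p = 0.9999).

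Timp2, an inhibitor of MMPs that also takes part in the activation of pro-MMP2, was lowest in liver. The gene (ENSMUSG00000017466) lies at chr11:118301069-118355740 on the minus strand and overlaps Cep295nl on the same strand, so reads of that pair may be uncertain. Its values were 603, 1374 and 1223 in thymus, 150, 149 and 213 in liver, and 1176, 963 and 294 in spleen. All 3 liver values lay below all thymus and spleen values, while thymus and spleen overlapped. The means were 1067 ± 408 in thymus, 171 ± 36.5 in liver and 811 ± 460 in spleen (SD, n = 3 each). The liver mean was 6.24-fold below that of thymus and 4.74-fold below that of spleen.

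The fitted log2 fold changes of Timp2 against thymus were −2.57 in liver and −0.53 in spleen (SE 0.76). From spleen to liver it was −2.03 (SE 0.76, 95% interval −3.64 to −0.43). This unadjusted interval did not include 0, with an unadjusted p of 0.0165, but the limma p adjusted over all 13309 genes was 0.9999 and the difference did not pass. Without spleen replicate 1, which had the macrophage markers, it was −1.65. Spleen replicate 3, at 294, was the spleen library nearest to liver. Liver replicate 3, the shallowest library, gave its Timp2 value from 35 reads, and the other liver libraries gave theirs from 173 and 174.

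**Figure D2:**
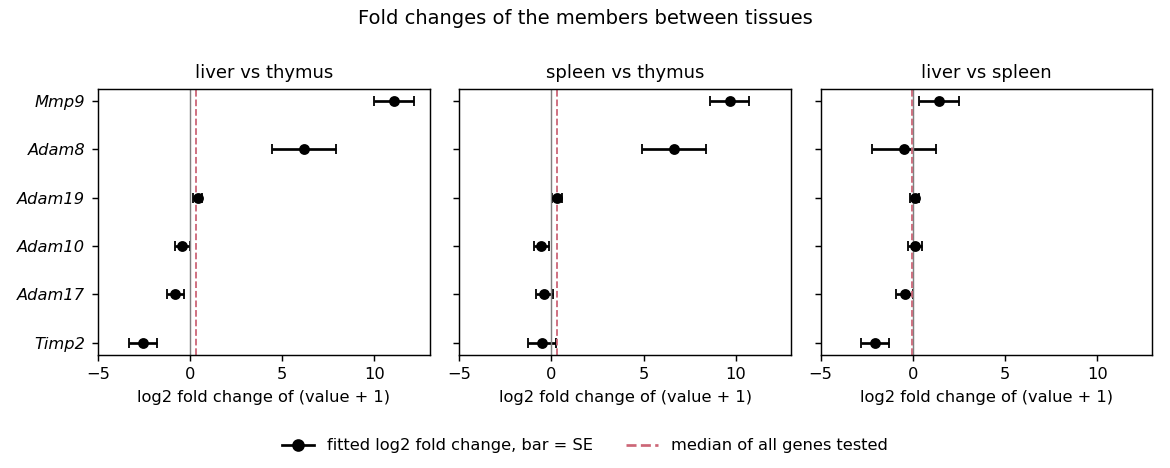
Fitted log2 fold change of value + 1 of the 6 genes in 3 comparisons, with bars of 1 SE and a dashed line at the median of all genes tested. Mmp9 and Adam8 lie far to the right in both comparisons with thymus, Timp2 lies to the left in liver against thymus and against spleen, and the 3 remaining sheddases lie within 1 log2 unit of 0.

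The order of tissues differed between the genes. Mmp9 was highest in liver, then spleen, then thymus, with no overlap between neighbours in that order. Adam8 was lowest in thymus, and its liver and spleen values were not separated. Timp2 was lowest in liver, and its spleen and thymus values were not separated. Adam10, Adam17 and Adam19 had no neighbours in their order that were separated.

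In liver against thymus 1 of the 6 genes, Mmp9, had a limma adjusted p under 0.05, where the percentage of all genes tested was 0.323%. In spleen against thymus it was again Mmp9 alone, where the percentage was 0.398%. Both contrasts share the thymus libraries and hold the values behind the set, so nothing is read from these counts. In liver against spleen 0 of the 6 passed in limma, which called 0.015% of all genes. There 0 also passed in edgeR (0.015% of all genes) and in DESeq2 (0.165%). Timp2 alone of the 6 had an unadjusted p under 0.05 in limma, as did 3.03% of all genes. In liver against thymus the 3 values of a tissue lay apart from the 3 of the other for Mmp9, Adam8 and Timp2 (15.3% of all genes). In spleen against thymus they did for Mmp9 and Adam8 (15.3%), and in liver against spleen for Mmp9 and Timp2 (12.7%). These percentages use the values as deposited, so a gene without a read in either tissue can count as apart. The hepatocyte gene Fga did in spleen against thymus, at 0 against 0.0207 to 0.0432.

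Thymus replicate 3 changed the count of genes called. Without it, Adam8 joined Mmp9 past the threshold in limma in both comparisons with thymus, when 1.15% of all genes passed in liver against thymus and 1.07% in spleen against thymus. With only the 6 libraries of a comparison in the fit, Mmp9 passed in liver against thymus (0.0964% of all genes) but not in spleen against thymus (0.128%). In DESeq2, Timp2 passed beside Mmp9 in liver against thymus, with 3.47% of all genes, and Mmp9 alone of the 6 in spleen against thymus, with 3.87%. All of these are counts in the contrasts behind the set, and nothing is read from them either. The median log2 fold change over all genes tested was 0.29 in liver and 0.33 in spleen against thymus, and −0.02 in liver against spleen. The medians over the 6 genes were −0.01, −0.05 and −0.16. Relative to the median of all genes, Timp2 was −2.86, Adam17 −1.11, Adam10 −0.71 and Adam19 0.11 in liver against thymus. In spleen against thymus they were −0.86, −0.72, −0.87 and −0.03. Mmp9 and Adam8 lay above that median in both comparisons.

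Levels between genes were compared per kilobase of merged exons. Adam19 had a mean normalised read count per kb of 1345 in thymus, 1762 in liver and 1618 in spleen, the highest of the 6 in each. In liver Mmp9 came next at 946 per kb, above Adam10 at 437 and Adam17 at 269. In spleen Mmp9 stood at 403 per kb, beside Adam10 at 398 and Adam17 at 373. In thymus the order below Adam19 was Adam10 at 600, Adam17 at 542 and Timp2 at 274, and Mmp9 was at 0.245. Adam8 and Timp2 held the lowest places in liver, at 82.3 and 43.9 per kb.

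The ratio of 2 genes within a library does not depend on that library's scaling. These ratios were chosen after the values were seen. How often ratios of other pairs of genes lie apart between tissues was not computed, so nothing is read from such separations. Mmp9 per kb over Timp2 per kb, a secreted protease over an inhibitor, was 25.1, 22.4 and 18.5 in liver and 0.554, 1.87 and 7.67 in spleen. All liver libraries lay above all spleen libraries. This follows from the separate liver and spleen values of both genes and adds nothing to them. The spleen ratios spanned a wide range. Adam17 over Adam10 was 0.936, 2.13 and 0.28 in thymus, 0.590, 0.514 and 0.797 in liver, and 1.31, 0.794 and 0.735 in spleen. Thymus replicate 2 favoured Adam17 and thymus replicate 3 favoured Adam10, so the balance of these 2 sheddases differed more among thymus libraries than between tissues. Adam19 over Adam10 was 2.88, 2.54 and 1.62 in thymus, 3.31, 3.995 and 4.94 in liver, and 4.32, 3.12 and 5.06 in spleen, with every thymus ratio below every peripheral one.

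**Figure D3:**
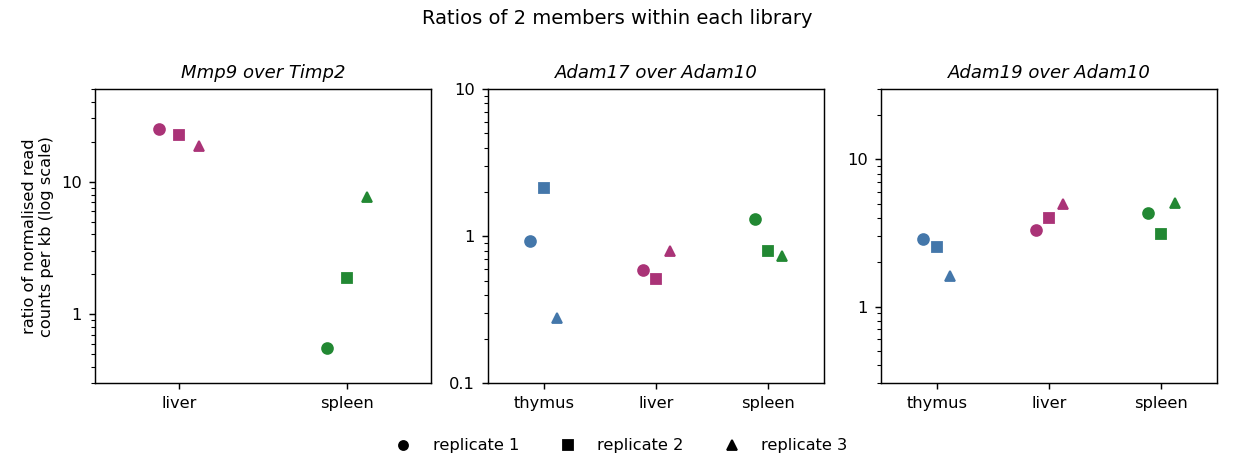
Ratio of normalised read counts per kb of 2 genes within each library (log axes), by tissue, with 1 symbol per library. Mmp9 over Timp2 is shown for liver (18.5 to 25.1) and spleen (0.554 to 7.67) only, since thymus had at most 2 Mmp9 reads, while Adam17 over Adam10 spreads most in thymus.

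The other genes of the system were taken from 6 lists. Of 90 genes listed, 42 had a row and 41 passed the filter on low values. None of the 41 passed in limma in any of the 3 comparisons, against 0.323%, 0.398% and 0.015% of all genes. At an unadjusted p under 0.05 there were 8 in liver against thymus (all genes 11.6%), 7 in spleen against thymus (11.7%) and 0 in liver against spleen (3.03%). edgeR called 0 of the 41 in each comparison, against 0.165%, 0.278% and 0.015% of all genes. DESeq2 called 1, 3 and 0, against 3.47%, 3.87% and 0.165%. The median log2 fold changes of the 41 were 1.30, 1.28 and 0.01. With genes of at most 3 reads in every library of a tissue set at their bound against 3 reads, the medians were 1.29, 1.28 and 0.01. The medians of all genes tested were 0.29, 0.33 and −0.02. Against thymus the list medians were lower in edgeR (0.64 in liver and 0.78 in spleen, with all genes at −0.02 and 0.03) and in DESeq2 (0.71 and 0.74, with all genes at −0.04 and −0.02). Without spleen replicate 1 the limma median in spleen against thymus was 0.65.

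Few of the other proteases had a row. Of 20 further MMP genes 4 had a row, and Mmp11 reached 647 in thymus replicate 2 and 120 in liver replicate 2 but at most 8.83 elsewhere. Mmp25, a membrane-anchored leukolysin, stood at 90.4 in liver replicate 1 and at most 26.8 in the other libraries. Of 10 further ADAM genes 4 had a row, among them Adam12, Adam15 and Adam22. Adam12 had values of 0.021, 2.34 and 109 in thymus, 47.8, 285 and 128 in liver and 604, 367 and 213 in spleen. Spleen did not overlap thymus for Adam12, with a mean 10.6-fold higher, but its log2 fold change of 5.65 did not pass in limma (adjusted p = 0.231). Of the ADAMTS proteases, Adamts10 was the highest, with means of 3349 ± 1020 in thymus, 1783 ± 610 in liver and 1507 ± 204 in spleen (SD, n = 3 each). Its log2 fold changes of −0.92 and −1.11 against thymus did not pass in limma (adjusted p = 0.423 and 0.328).

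Among other inhibitors only Reck, a membrane-anchored inhibitor of MMP9, had a row. Reck ranged from 0.0211 to 31.4 in thymus, 34.8 to 348 in liver and 2.19 to 441 in spleen, so spleen overlapped both other tissues. Timp3, Timp4 and A2m had no row and were not analysed here.

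Genes that mature or carry sheddases were better covered, with 7 of 13. Furin, the convertase that removes the propeptide of ADAM10 and ADAM17, had values of 1596, 103 and 186 in thymus, 2530, 1878 and 3203 in liver, and 2679, 4567 and 5440 in spleen. Every peripheral value lay above every thymus value, although thymus replicate 1 stood well above the other 2 thymus libraries. The log2 fold changes of Furin against thymus were 2.98 in liver and 3.69 in spleen (SE 0.76), and neither passed in limma (adjusted p = 0.156 and 0.0507). Frmd8, a partner of the iRhoms that carry ADAM17, had means of 2125 ± 1036 in thymus, 1280 ± 220 in liver and 1758 ± 418 in spleen (SD, n = 3 each), with overlapping ranges. Pcsk7, another convertase, ran from 279 to 1988 in thymus, 449 to 2499 in liver and 336 to 1979 in spleen.

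Of 24 substrates shed by these proteases 21 were tested. Cd44, the hyaluronan receptor and a docking site of MMP9, had the highest means, 11642 ± 6083 in thymus, 16321 ± 4133 in liver and 10157 ± 679 in spleen (SD, n = 3 each). Cd27, a costimulatory receptor, stood at 7344 ± 2735, 7421 ± 595 and 7611 ± 2354, and Sema4d, a semaphorin, at 5912 ± 766, 7238 ± 691 and 8265 ± 1027 in thymus, liver and spleen (SD, n = 3 each). Tgfa, an ADAM17-shed EGF receptor ligand, was named after its values were seen. Its values were 659, 529 and 331 in thymus, at most 0.857 in liver, and 15.6, 0 and 0 in spleen. Against a level of 3 reads in liver, Tgfa was at least 65.2-fold higher in thymus, yet the fitted log2 fold changes of −8.63 and −7.58 did not pass in limma (adjusted p = 0.0510 and 0.0852).

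**Figure D4:**
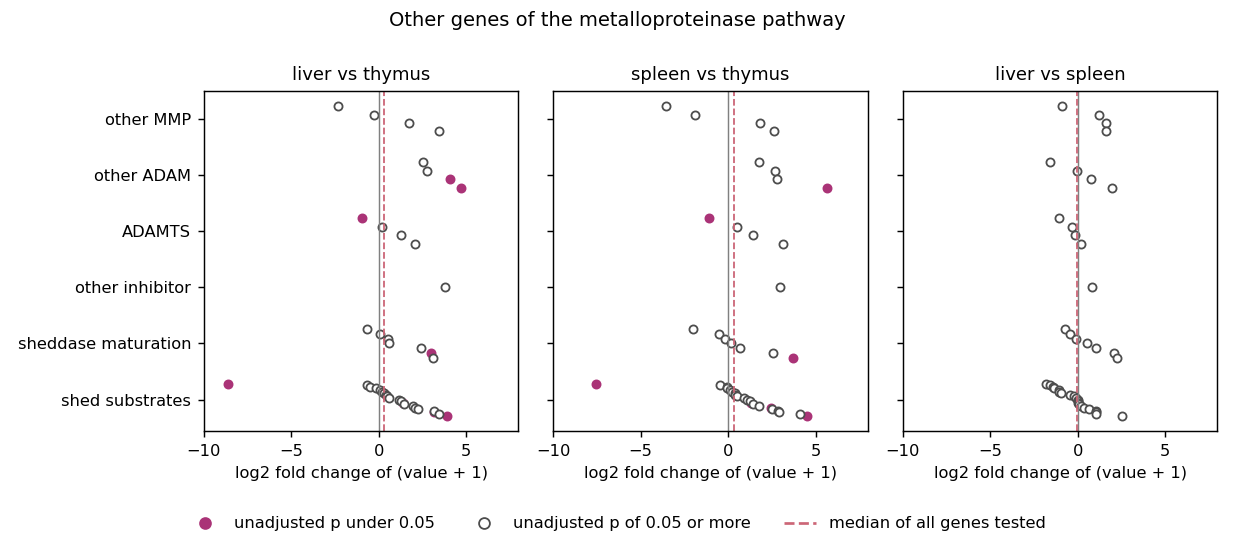
Fitted log2 fold change of value + 1 of the 41 other genes of the system, by list, in 3 comparisons, where filled points have an unadjusted p under 0.05 and the dashed line is the median of all genes tested. None passed after adjustment, filled points number 8, 7 and 0, and the point farthest to the left in both comparisons with thymus is Tgfa.

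By Pearson correlation of log2(value + 1) over the 9 libraries, the genes closest to Mmp9 among 8902 considered were Pak6 (r = 0.984), Socs3 (0.981), Tefm (0.981), Ly6c1 (0.979) and Ampd2 (0.967). The points share their libraries and depths, and the mean of each of these genes was lowest in thymus and highest in liver, as for Mmp9. Pak6, a p21-activated kinase, was at most 0.0445 in thymus and stood at 676 in liver and 483 in spleen on average. Ly6c1, a surface antigen of peripheral lymphocytes, averaged 10.97, 219 and 144 in thymus, liver and spleen. Of the set itself, Adam8 had the highest correlation with Mmp9 (r = 0.89), followed by Adam19 (0.56). Adam10 (−0.52), Adam17 (−0.60) and Timp2 (−0.66) had negative values over the same 9 libraries.

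**Figure D5:**
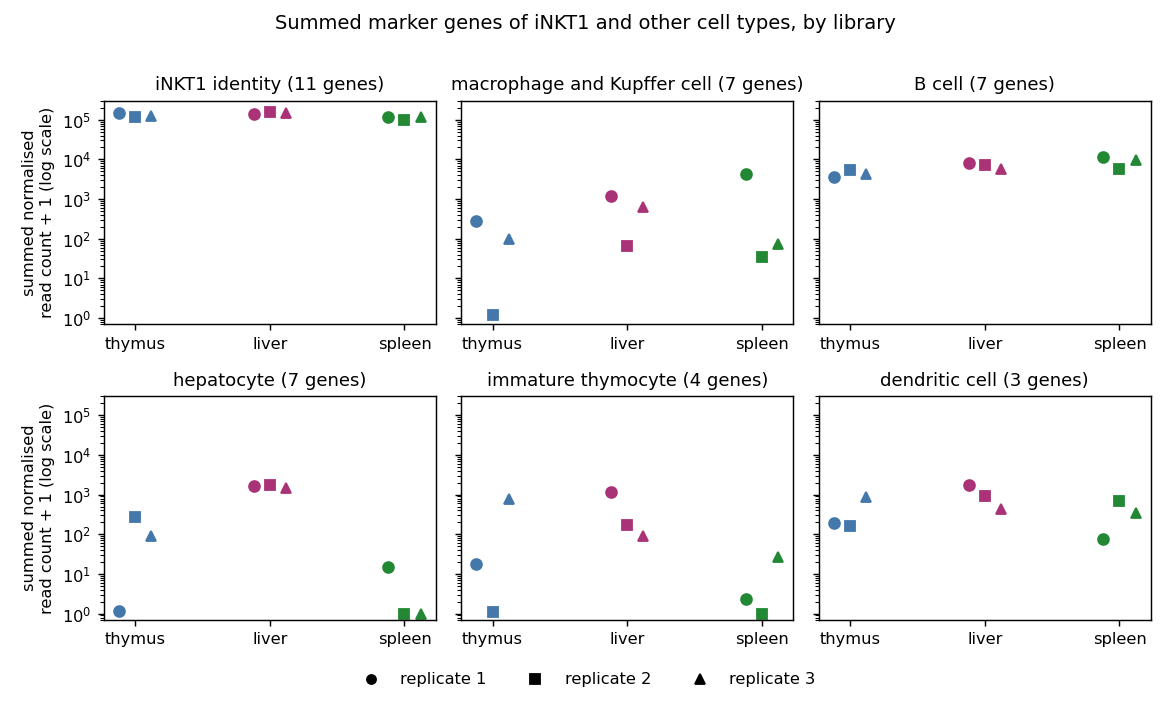
Summed normalised read count + 1 (log axis) of iNKT1 genes and of 5 lists of other cell types in each library, by tissue, with 1 symbol per library. The iNKT1 sums lie between 98517 and 158046 in all 9 libraries, spleen replicate 1 has the highest macrophage and Kupffer cell sum (4361), and the hepatocyte sum is highest in the 3 liver libraries (1459 to 1800).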

How the data were processed

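RNA-seq of 9 iNKT1 libraries was analysed, 3 each from thymus, liver and spleen, sequenced for 76 cycles. Per the submitters' processing notes the tools were Trimmomatic 0.33, TopHat2 2.1.0, HTSeq 0.6.1 and edgeR, with the build mm10. The deposited table holds 1 normalised read count (a signal, never negative) per gene and library; its scaling is not given in the sources used here. Tissues were taken from the labels, and columns were matched by tissue letter and replicate number; the column of thymus replicate 2 carries 1 more letter, unexplained in the labels.

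Low values lie on equal steps in each library. Reads were recovered by dividing each value by that step, and 93.8% of the 15737 values up to 20 reads came out whole to within 0.1 (74.4% in liver replicate 3, at least 98.2% elsewhere). The 6 members were located through GENCODE vM21, and symbols matched 13359 of 14004 identifiers.

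The test had been planned for counts, with normalised values as a stated fallback, which was used: limma-trend (limma 3.58.1, R 4.3.3) on log2(value + 1). A gene entered if 3 or more samples reached a value of 1, which kept 13309. All 9 libraries entered 1 fit with a term per tissue. p-values were two-sided with Benjamini-Hochberg adjustment over all genes and a threshold of 0.05. The added 1 shrinks the fold changes of low genes, and averaging log values lets a fitted change exceed the ratio of the means where the libraries of a tissue are uneven. Folds over tissues with at most 3 reads in every library are bounds against 3 reads. Both read recovery and the fit were run on simulated data simpler than these, with exact steps and with 1 spread for all genes. Those runs checked the code and say nothing of the calls made here.

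The members and lists were chosen with earlier results of these data known. All members are named whatever their values. Of each list of other genes, those past the threshold are named, and otherwise some or all of the 3 with the highest mean over the 9 libraries. Not all of those 3 are named or given with values in every list, and Tgfa is named outside this rule. Genes like Mmp9 are the 5 with the highest correlation among named genes with a mean of at least 100 over the libraries. Alternatives were edgeR 4.0.16 and DESeq2 1.42.0 on recovered reads, equal column totals, other filters and pseudocounts, only the 6 samples compared, the replicate number as a block, array weights and leaving out each library. Fits on libraries numbered 1 and 3 only, and with the block in edgeR, were added after seeing the data. Genes without a row were not analysed here.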

Additional observations from a re-analysis of the deposited data

How the results depend on the processing

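Over 21 alternatives Mmp9 passed the threshold in all 21 in liver against thymus and in 20 in spleen against thymus, failing with only the 6 samples compared. Those contrasts hold the values that chose the set, so this is a description and no support. None of the 6 genes passed in liver against spleen under any of them. Of 378 recomputed fold changes of these genes, 373 kept their sign and 5 changed it, none of a difference that had passed. Leaving out 1 library, the log2 fold change from spleen to liver ran from −0.0301 (without liver replicate 2) to 0.27 for Adam10 and from −0.0452 (without liver replicate 2) to 0.26 for Adam19. For Adam19 it was −0.11 on libraries numbered 1 and 3 only. The cause was not tested. Adam8 against thymus fell to 3.62 in liver and 3.94 in spleen in edgeR. In spleen against thymus Timp2 was 0.08 without spleen replicate 3, and Adam17 0.02 without thymus replicate 2.

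Counts over all genes moved more. In liver against thymus 43 genes passed in limma, 22 in edgeR, 462 in DESeq2, 12 with only the 6 samples compared and 12 on libraries numbered 1 and 3, with 8 to 151 when 1 library was left out. In spleen against thymus the 53 genes became 515 in DESeq2, 16 with the 6 samples and 19 on libraries 1 and 3, with 9 to 140 when 1 library was left out. The highest count in both came without thymus replicate 3. In liver against spleen the 2 genes became 22 in DESeq2, 6 with the 6 samples, 18 with array weights and 0 on libraries 1 and 3 (339 at an unadjusted p under 0.05), with 0 to 3 when 1 library was left out. Of the 41 other genes of the system, 1 passed in liver against thymus in DESeq2, when 3.47% of all genes did. With a filter of 10, which tested 34 of them, 1 passed (0.353% of all genes). It was also 1 with a pseudocount of 2 (0.346%) and with array weights (0.376%). In spleen against thymus 3 passed in DESeq2 (3.87% of all genes) and 1 with a pseudocount of 2 (0.443%). It was 1 with the replicate block (0.413%) and with array weights (0.391%). Leaving out 1 library gave 0 to 2 in both comparisons. The share of all genes then ran from 0.061% to 1.15% in liver and from 0.0688% to 1.07% in spleen against thymus. The median log2 fold change of the 41 against thymus was 0.79 in liver and 0.57 in spleen on libraries numbered 1 and 3, and 0.90 and 0.78 with array weights. Furin passed in 2 of 21 alternatives in liver and 5 of 21 in spleen against thymus, and Tgfa in 4 and 1. Without thymus replicate 3 Adam12 also passed in spleen against thymus, at a log2 fold change of 7.62.

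Equal column totals moved the median of all genes to 0.43 and 0.48 against thymus, and edgeR to −0.02 and 0.03. Residuals of same-numbered libraries correlated from −0.00 to 0.09 over 9 pairs, against −0.09 to 0.05 over the other 18. Such weak and overlapping values cannot decide whether the replicate number pairs the libraries. Replicate 2 of every tissue was alike in having abundant Xist and few Y-linked reads. With the number as a block 42, 55 and 4 genes passed in the 3 comparisons. Depth limits low genes most in liver replicate 3.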
